A study of Mus musculus with 9 samples.

Results

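The chemokine genes Ccl3, Ccl4, Ccl5, Ccl6 and Ccl9 lie together on mouse chromosome 11 and encode the macrophage inflammatory proteins and RANTES. Their rows were taken from a table of gene expression by symbol, 5 genes of 46078, and are described over 3 macrophage cultures. All cultures were of C57BL/6J mice, an inbred strain, without any genetic change named in the labels, and all had been kept for at least 8 weeks. Both FLM cultures came from fetal livers taken between gestational days 15 and 19. FLM_G were fed 10% fetal bovine serum with recombinant GM-CSF, the granulocyte-macrophage growth factor, at 30 ng/ml. FLM_M were fed 20% fetal bovine serum with 30% supernatant of L cells, a fibroblast line that secretes the macrophage growth factor M-CSF. BMM were macrophages grown from bone marrow, and their medium is not described in the labels. Tissue of origin and medium therefore cannot be told apart between BMM and either FLM culture. Between FLM_G and FLM_M the growth factor and the share of serum both differ and cannot be told apart. Each culture was plated in 3 wells and gave 3 libraries. Nothing in the labels says that the wells came from separate animals or cultures, so a p-value measures the spread between wells, which may be technical.

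CC chemokines are small secreted proteins named for a pair of adjacent cysteines near their amino end. They bind receptors with a membrane-spanning bundle on leukocytes and draw those cells along a gradient. Macrophages are a main source of Ccl3 (MIP-1α) and Ccl4 (MIP-1β), which toll-like receptor signals switch on within hours and whose messages are quickly degraded. Ccl5 (RANTES) is made by T cells and, after inflammatory or antiviral signals, by macrophages. Ccl6 (C10) and Ccl9 (MIP-1γ) are rodent chemokines that act through Ccr1 and gain activity when proteases trim their long amino end.

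The adjacent cysteine codons are shown because they define the family and because the surrounding letters show how far the 5 coding sequences have diverged. The stretches are 45 bases of coding sequence from GENCODE M21 (GRCm38), 5′ to 3′ in the sense of the gene, with both cysteine codons in capitals.
Ccl3: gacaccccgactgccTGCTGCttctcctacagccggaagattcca
Ccl4: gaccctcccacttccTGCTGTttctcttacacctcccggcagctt
Ccl5: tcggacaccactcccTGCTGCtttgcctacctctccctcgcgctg
Ccl6: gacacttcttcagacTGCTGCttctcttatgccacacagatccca
Ccl9: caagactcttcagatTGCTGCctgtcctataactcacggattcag
The first of these codons was codon 34 in Ccl3 and Ccl4, codon 33 in Ccl5, codon 50 in Ccl6 and codon 57 in Ccl9. The coding sequences held 92 codons in Ccl3 and Ccl4, 91 in Ccl5, 116 in Ccl6 and 122 in Ccl9. Ccl3 and Ccl4 shared 68.4% of aligned coding bases and Ccl6 and Ccl9 shared 64.6%, the highest values of the 10 pairs. The longest run shared by any pair of the transcripts was 25 bases, between Ccl6 and Ccl9, which is shorter than the reads of 101 cycles.

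By the steps in the FPKM values (fragments per kilobase of transcript, scaled by the fragments of a library) the libraries held 28428200 to 35379400 reads. Log-scale values correlated at 0.986 to 0.992 within cultures and at 0.785 to 0.936 between cultures. The macrophage markers Adgre1, Csf1r, Cd68, Itgam, Lyz2, Cd14, Fcgr1 and Mertk all reached 5 scaled FPKM. Of 11 markers of T and NK cells, other sources of Ccl3, Ccl4 and Ccl5, none reached 1 FPKM in a culture and 7 were listed at 0 in all libraries, among them Cd3d, Cd3e, Cd3g, Nkg7 and Gzmb. The summed level of that list was 0.825 to 1.02 FPKM in FLM_G, 0.524 to 0.604 in FLM_M and 0.200 to 0.304 in BMM. Of the other lists, the summed neutrophil markers were at 49.9 to 57.0 FPKM in FLM_G, 9.81 to 12.6 in FLM_M and 5.86 to 6.33 in BMM. S100a8 (53.3 in FLM_G, 11 in FLM_M and 1.94 in BMM) made up most of that sum in FLM_G and FLM_M. Csf3r (0.294 in FLM_G, 0.343 in FLM_M and 3.01 in BMM) and S100a9 (0 in FLM_G, 0 in FLM_M and 0.974 in BMM) were highest in BMM. Ly6g and Elane were listed at 0 throughout. The megakaryocyte list was at 0.474 to 0.697 FPKM in FLM_G, 144 to 187 in FLM_M and 189 to 197 in BMM, nearly all of it Pf4. The B cell, mast cell, dendritic cell, erythroid, and fibroblast and hepatocyte lists reached at most 3.08 FPKM in sum in any library. The part of these other cells in the chemokine levels was not tested. Xist averaged 48.5 FPKM in FLM_G, 70.9 in FLM_M and 0.00201 in BMM, while the Y-linked Eif2s3y was listed at 0 in FLM_G and FLM_M and at 11 ± 0.34 in BMM, so that the sex of the source animals and the culture cannot be told apart between BMM and the others.

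The 5 genes did not move as a block. FLM_G carried far more Ccl6 and more Ccl3 than the other cultures, together with less Ccl4 and almost no Ccl5. Ccl9 was also higher in FLM_G, against FLM_M only after scaling between libraries. FLM_M held the highest Ccl4 and Ccl5 and an intermediate level of Ccl3, Ccl6 and Ccl9, and BMM were lowest for Ccl3, Ccl6 and Ccl9. Levels are given as scaled FPKM, the deposited FPKM after TMM scaling between libraries, with ± for the SD over 3 libraries. Each change is tested with limma on log2(scaled FPKM + 1) over 11952 genes, with Benjamini-Hochberg adjusted p-values called under 0.05. In bulk RNA a change in the number of expressing cells and a change in the RNA of each cell cannot be told apart.

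In FLM_M against BMM all 5 genes were called higher, where 44.6% of all tested genes were called, 22.7% as higher and 21.9% as lower. In FLM_G against BMM 3 were called higher and 2 lower, where 68.0% of tested genes were called, 33.8% as higher and 34.1% as lower. In FLM_G against FLM_M again 3 were called higher and 2 lower, where 70.6% of tested genes were called, 35.5% as higher and 35.1% as lower. Their median log2 change was 0.87 in FLM_M against BMM, 0.68 in FLM_G against BMM and 0.49 in FLM_G against FLM_M, beside medians over all tested genes of -0.0015, -0.00032 and 0.0017 in the same comparisons. With called shares this high, the size and direction of each gene's change say more than the count. That holds as well for the counts in the gene lists below, which stand beside these same shares. The libraries of any pair of cultures did not overlap for any of the 5 genes, as for 57.3% of tested genes in FLM_M against BMM, 73.2% in FLM_G against BMM and 72.4% in FLM_G against FLM_M. The 3 comparisons share libraries, so they are not independent. Calls over all tested genes were split into 4044 higher and 4081 lower in FLM_G against BMM and into 4246 higher and 4195 lower in FLM_G against FLM_M. Without scaling between libraries the median gene moved to -0.34 and -0.39 in these comparisons and the splits were 2081 to 6775 and 2218 to 7075, so that changes are relative to the median gene.

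**Figure D1:**
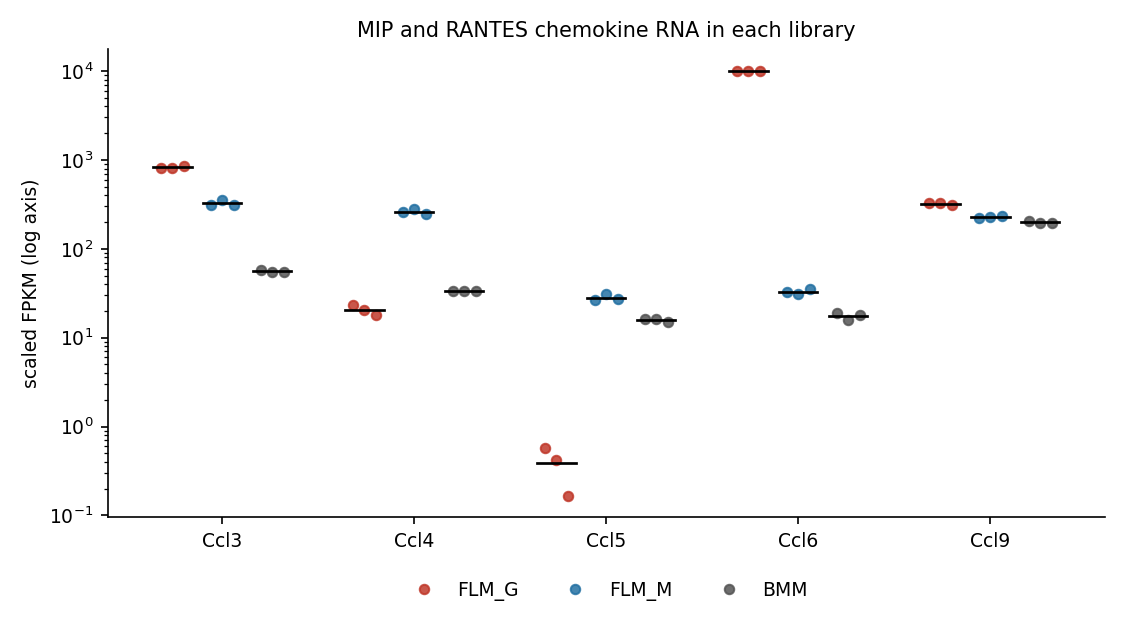
Scaled FPKM (log axis) of the 5 chemokine genes in each library, with FLM_G left, FLM_M in the middle and BMM right; points are libraries and black bars are means of 3. Ccl6 reaches 10037 to 10124 in FLM_G, 31.0 to 35.0 in FLM_M and 15.9 to 19.1 in BMM, while Ccl5 lies below 1 in every FLM_G library and Ccl9 stays between 195 and 326 in all 9.

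**Figure D2:**
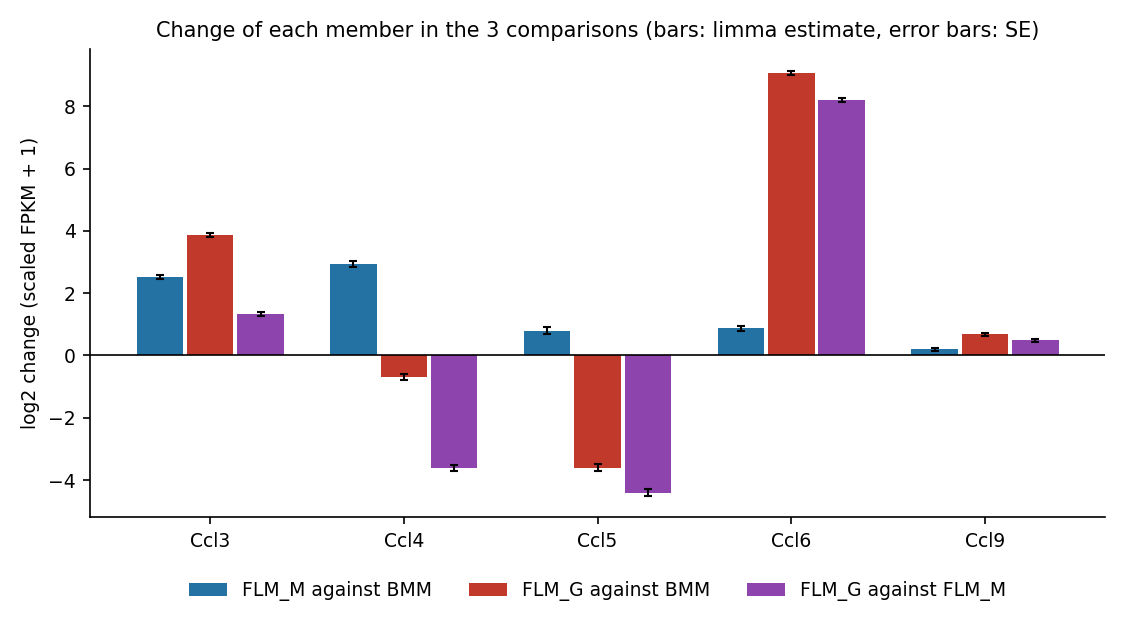
Log2 change of each gene in FLM_M against BMM, FLM_G against BMM and FLM_G against FLM_M on the log2(scaled FPKM + 1) scale; bars are limma estimates and error bars their SE. Ccl3, Ccl6 and Ccl9 have positive bars in all 3 comparisons (that of Ccl9 in FLM_G against FLM_M is 0.49, and 0.0054 without scaling), while Ccl4 and Ccl5 have a positive bar in FLM_M against BMM and negative bars in both FLM_G comparisons.

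Ccl3 (ENSMUSG00000000982, minus strand, chr11:83647844-83649355, GRCm38) encodes MIP-1α, a ligand of Ccr1. It stood at 807, 812 and 845 scaled FPKM in the FLM_G libraries, at 312, 350 and 312 in FLM_M and at 58.2, 54.8 and 54.2 in BMM. The cultures were thus ordered FLM_G, FLM_M, BMM without overlap. The level was 821.7 ± 20.8 in FLM_G, against 55.7 ± 2.16 in BMM, 14.7-fold by means (log2 change 3.86, SE 0.058, limma adjusted p = 1.03e-10). FLM_M, at 324.6 ± 22.0, were 5.82-fold above BMM (log2 change 2.52, SE 0.058, limma adjusted p = 5.14e-09). FLM_G exceeded FLM_M by 2.53-fold (log2 change 1.34, SE 0.058, limma adjusted p = 7.38e-08), and edgeR on the deposited counts, a table described in the closing section, gave 0.58 with an adjusted p of 0.0565 for that comparison. On those counts Ccl3 also differed less from BMM, by 1.53 with edgeR and 1.48 with DESeq2 in FLM_G and by 0.95 with edgeR and 0.86 with DESeq2 in FLM_M. Ranked by mean level among all genes in its culture, Ccl3 was number 79 in FLM_G, 113 in FLM_M and 924 in BMM.

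Ccl4 (ENSMUSG00000018930, plus strand, chr11:83662584-83664683) encodes MIP-1β, a chemokine that is often induced together with Ccl3. Here it had 23.6, 20.6 and 17.8 scaled FPKM in FLM_G, 257.1, 280.2 and 249.1 in FLM_M and 33.6, 33.5 and 33.5 in BMM. It was highest in FLM_M, and every FLM_G library lay below every BMM library. FLM_M averaged 262.1 ± 16.2, against 33.5 ± 0.05 in BMM, a 7.82-fold rise (log2 change 2.93, SE 0.091, limma adjusted p = 3.05e-08). In FLM_G it averaged 20.7 ± 2.90, 0.0788 of the FLM_M level (log2 change -3.61, SE 0.091, limma adjusted p = 1.97e-09). Against BMM the FLM_G level was 0.616 as high (log2 change -0.68, SE 0.091, limma adjusted p = 0.000171). In the deposited counts, where Ccl4 had 0 to 3 reads in each FLM_G and BMM library, the fall against BMM was not called, with edgeR (-0.62, adjusted p = 0.683) or with DESeq2 (-0.76, adjusted p = 0.758).

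Ccl3 and Ccl4 start 13.2 kb apart on opposite strands, and their relative level differed between cultures. The ratio of Ccl3 to Ccl4 within a library was 34.2 to 47.5 in FLM_G, 1.21 to 1.25 in FLM_M and 1.62 to 1.73 in BMM. The pair was therefore near balance in FLM_M and BMM and Ccl3 was in large excess in every FLM_G library. On the log2(FPKM + 1) scale the ratio differed by 4.52 between FLM_G and BMM, by 4.93 between FLM_G and FLM_M and by -0.41 between FLM_M and BMM. A ratio within a library does not depend on the scaling between libraries. Each of these differences had p = 0.1 in a two-sided exact permutation test over 3 against 3 libraries, the smallest p that design allows, and 0.1 after adjustment over the 12 tests of 4 ratios. Over the 9 libraries the 2 genes had a Pearson correlation of -0.0037 on the log2 scale, a description of 3 clusters of libraries.

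**Figure D3:**
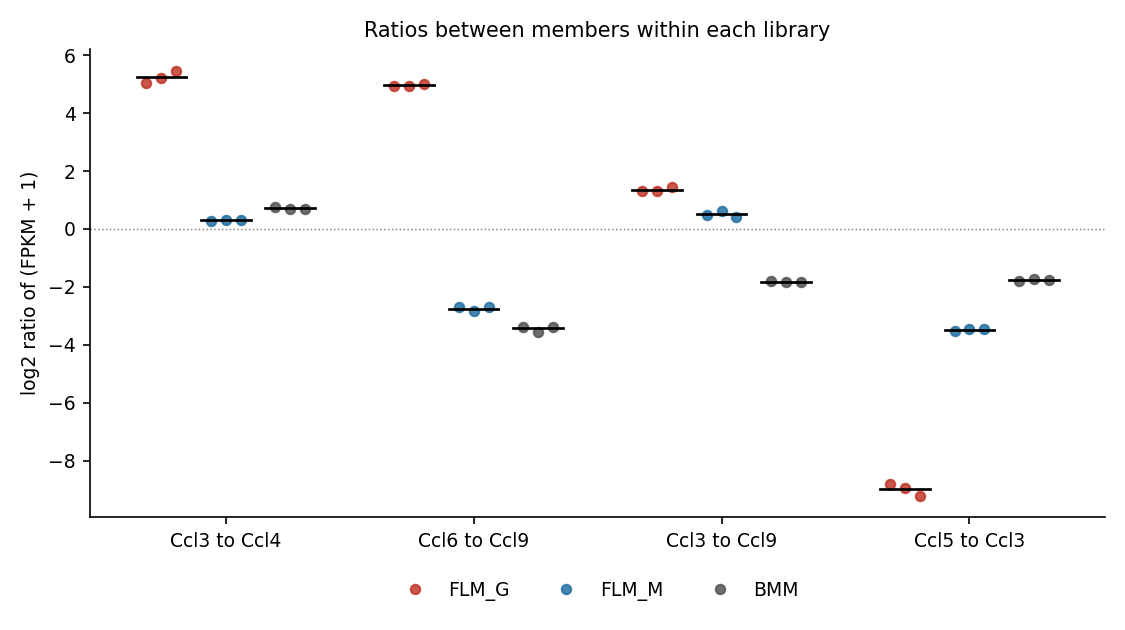
Log2 ratios of (FPKM + 1) within each library for 4 pairs of the chemokine genes, with FLM_G left, FLM_M in the middle and BMM right; points are libraries, black bars are means and the dotted line marks equal levels. Ccl3 to Ccl4 is 5.24 on average in FLM_G, 0.31 in FLM_M and 0.72 in BMM, and Ccl6 to Ccl9 is 4.97 in FLM_G, -2.75 in FLM_M and -3.43 in BMM.

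Messages of Ccl3 and Ccl4 are known targets of decay through AU-rich elements. The heptamer TATTTAT, searched on the sense strand, occurred 1 time in the 3′ untranslated region of each of these genes and not in that of Ccl5, Ccl6 or Ccl9. It occurred at least once in 27.4% of 21045 genes with an annotated 3′ untranslated region. A stretch of 30 bases ending with the heptamer, in capitals, is shown for Ccl3 and Ccl4 because the other 3 genes lack it (GENCODE M21, GRCm38).
Ccl3: attgtcatacttgtatttgtgacTATTTAT
Ccl4: ttttgggggagtattatttctatTATTTAT
These stretches lie at chr11:83648014-83648043 on the minus strand for Ccl3 and at chr11:83664530-83664559 on the plus strand for Ccl4. The shorter pentamer ATTTA, also a core of AU-rich elements, occurred 5 times in the 3′ untranslated region of Ccl3, 2 times in that of Ccl4, 0 times in that of Ccl5, 4 times in that of Ccl6 and 5 times in that of Ccl9.

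Ccl5 (ENSMUSG00000035042, minus strand, chr11:83525778-83530518) encodes RANTES, a ligand of Ccr1 and Ccr3. It had 0.576, 0.416 and 0.165 scaled FPKM in FLM_G, 26.2, 30.9 and 27.5 in FLM_M and 16.1, 16.1 and 15.2 in BMM. Every FLM_G library was far below the others, at a level that corresponds to about 2.20 to 7.15 reads in each library. FLM_G averaged 0.386 ± 0.207, against 15.8 ± 0.54 in BMM, so that BMM were 40.9 times higher (log2 change -3.61, SE 0.110, limma adjusted p = 7.59e-09). Against FLM_M, with 28.2 ± 2.43, the fall was steeper (log2 change -4.41, SE 0.110, limma adjusted p = 1.82e-09), and FLM_M were 73.2 times higher. At so few reads these ratios are uncertain, and the log2(FPKM + 1) scale understates them. FLM_M were 1.79-fold above BMM (log2 change 0.80, SE 0.110, limma adjusted p = 0.000415). In the deposited counts Ccl5 had 0 reads in each FLM_G library and 1 to 12 in the others, and DESeq2 on them did not call FLM_M against BMM (0.74, adjusted p = 0.792) or FLM_G against BMM (-3.82, adjusted p = 0.0586). With edgeR on the counts Ccl5 had no value.

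Ccl6 (ENSMUSG00000018927, minus strand, chr11:83587882-83593087) encodes C10, a Ccr1 ligand that GM-CSF is known to induce in mouse macrophages. It reached 10037, 10057 and 10124 scaled FPKM in FLM_G, against 33.1, 31.0 and 35.0 in FLM_M and 19.07, 15.92 and 17.98 in BMM. With a mean of 10073 ± 45.7 it was the gene of rank 14 in FLM_G, while it ranked 1603 in FLM_M and 2938 in BMM. No library of FLM_M or BMM came near the FLM_G level. FLM_G were 570-fold above BMM (log2 change 9.08, SE 0.070, limma adjusted p = 4.51e-12) and 305-fold above FLM_M (log2 change 8.21, SE 0.070, limma adjusted p = 4.98e-12). Without scaling between libraries the folds were 425 and 217. FLM_M, at 33.0 ± 1.98, were 1.87-fold above BMM, at 17.7 ± 1.60 (log2 change 0.87, SE 0.070, limma adjusted p = 1.32e-05). On the deposited counts the change of Ccl6 in FLM_M against BMM was larger, 2.09 with edgeR and 2.06 with DESeq2. The antisense gene E230016K23Rik overlaps Ccl6 on the plus strand, and since no source used here gives the strand setting of the authors' counting, reads of the pair may be mixed. Its FPKM was 0.0447% to 0.0511% of that of Ccl6 in FLM_G and 0.194% to 0.292% in the other libraries.

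Ccl9 (ENSMUSG00000019122, minus strand, chr11:83572919-83578636) encodes MIP-1γ, a Ccr1 ligand abundant in macrophages and osteoclasts. It was the steadiest of the 5, with 324, 326 and 311 scaled FPKM in FLM_G, 222, 228 and 234 in FLM_M and 206, 196 and 195 in BMM. The cultures followed the order seen for Ccl3 and Ccl6 with much smaller steps. FLM_G averaged 320.3 ± 7.83, against 199.0 ± 6.10 in BMM, a 1.61-fold rise (log2 change 0.68, SE 0.045, limma adjusted p = 1.36e-06). FLM_M, at 227.6 ± 6.02, were 1.14-fold above BMM (log2 change 0.19, SE 0.045, limma adjusted p = 0.00771). FLM_G were 1.41-fold above FLM_M (log2 change 0.49, SE 0.045, limma adjusted p = 1.17e-05), but this difference depended on the scaling between libraries. The deposited FPKM were 259.5 ± 8.82 in FLM_G and 258.5 ± 5.81 in FLM_M, and without scaling the log2 change was 0.0054 (limma adjusted p = 0.922). On the counts edgeR gave Ccl9 a log2 change of 0.76 in FLM_M against BMM, above the 0.19 on FPKM. In the counts DESeq2 called Ccl9 in no comparison, with adjusted p of 0.188 in FLM_M against BMM, 0.0615 in FLM_G against BMM and 0.879 in FLM_G against FLM_M, where edgeR gave 0.838.

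Ccl6 and Ccl9 are neighbours 9.245 kb apart with the same orientation, and they moved in the same direction in all comparisons but by very different amounts. The ratio of Ccl6 to Ccl9 was 30.9 to 32.5 in FLM_G, 0.136 to 0.150 in FLM_M and 0.0814 to 0.0926 in BMM. Ccl6 was the more abundant of the pair in FLM_G and the less abundant in FLM_M and BMM. The log2 ratio differed by 8.40 between FLM_G and BMM, by 7.72 between FLM_G and FLM_M and by 0.68 between FLM_M and BMM (two-sided exact permutation p = 0.1 for each, the smallest possible). The same test at the same p gave 3.18, 0.85 and 2.33 in those comparisons for Ccl3 to Ccl9, and -7.23, -5.51 and -1.72 for Ccl5 to Ccl3. Since Ccl5 lay below 1 FPKM in FLM_G, the log2(FPKM + 1) scale understates the FLM_G differences of this last ratio. The plain ratio of Ccl5 to Ccl3 averaged 0.00047 in FLM_G, 0.087 in FLM_M and 0.283 in BMM.

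Promoters are shown for the 3 of the 5 genes that matched the RefSeq table, Ccl3, Ccl6 and Ccl9, which moved in the same direction in each comparison on scaled FPKM. The genes not shown are Ccl4 and Ccl5. Each is the RefSeq window of 300 bases on GRCm38.p6, 250 before and 50 after the start, given 5′ to 3′ on the minus strand as the genes run. The windows are chr11:83649329-83649628 for Ccl3, chr11:83593038-83593337 for Ccl6 and chr11:83578587-83578886 for Ccl9. Capitals mark matches on either strand to any of 6 motifs, namely the kappaB consensus, AP-1 (TGANTCA), C/EBP (TTGCNNAA), STAT (TTCNNNGAA), ETS (AGGAAG) and the core of the TATA box (TATAAA).
Ccl3: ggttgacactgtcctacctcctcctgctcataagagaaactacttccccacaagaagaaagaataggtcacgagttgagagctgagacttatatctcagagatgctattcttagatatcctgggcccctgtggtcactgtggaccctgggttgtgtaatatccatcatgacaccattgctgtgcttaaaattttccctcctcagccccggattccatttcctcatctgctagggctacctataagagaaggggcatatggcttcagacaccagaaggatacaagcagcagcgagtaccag
Ccl6: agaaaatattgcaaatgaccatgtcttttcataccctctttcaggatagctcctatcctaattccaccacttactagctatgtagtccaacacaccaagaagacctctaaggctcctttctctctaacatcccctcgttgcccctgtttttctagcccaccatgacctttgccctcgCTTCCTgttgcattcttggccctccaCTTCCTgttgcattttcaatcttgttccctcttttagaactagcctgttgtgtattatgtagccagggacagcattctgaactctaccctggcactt
Ccl9: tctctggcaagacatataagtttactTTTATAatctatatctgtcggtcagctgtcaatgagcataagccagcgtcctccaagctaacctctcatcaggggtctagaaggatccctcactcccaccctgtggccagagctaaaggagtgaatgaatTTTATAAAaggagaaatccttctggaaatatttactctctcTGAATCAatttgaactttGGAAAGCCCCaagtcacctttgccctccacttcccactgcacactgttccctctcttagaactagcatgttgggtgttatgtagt
The Ccl3 window held none of the 6. The Ccl6 window held 2 ETS matches, both on the strand opposite to the gene, a motif present in 35.1% of 32544 promoters of this length. The Ccl9 window held 1 kappaB match, present in 11.2% of promoters, 1 AP-1 match, present in 7.79%, and 3 TATA matches, of which the last 2 overlap on opposite strands, present in 13.6%. C/EBP and STAT letters, present in 10.8% and 8.33% of promoters, were in none of the 3 windows. The Ccl6 and Ccl9 windows shared the run gccctccacttcc, of 13 bases, and 47.1% of aligned bases. These matches describe the letters and say nothing of binding.

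Summed over the 5 genes, chemokine RNA was 11240 ± 56.2 scaled FPKM in FLM_G, 875.6 ± 38.5 in FLM_M and 321.7 ± 9.75 in BMM. The cultures differed in which gene supplied it. In FLM_G Ccl6 made up 89.7% ± 0.04 of the sum, Ccl3 7.31% ± 0.15, Ccl9 2.85% ± 0.08, Ccl4 0.184% ± 0.027 and Ccl5 0.0034% ± 0.0019. In FLM_M Ccl3 made up 37.1% ± 0.88, Ccl4 29.9% ± 0.77, Ccl9 26.02% ± 1.25, Ccl6 3.78% ± 0.37 and Ccl5 3.22% ± 0.14. In BMM Ccl9 made up 61.9% ± 0.06, Ccl3 17.3% ± 0.18, Ccl4 10.4% ± 0.30, Ccl6 5.49% ± 0.39 and Ccl5 4.91% ± 0.17. In FLM_G the levels of the 5 genes were separated by more than the spread of the libraries. In FLM_M no genes overlapped, but Ccl6 (31.0 to 35.0 FPKM) and Ccl5 (26.2 to 30.9) nearly met. In BMM Ccl6 (15.9 to 19.1 FPKM) and Ccl5 (15.2 to 16.1) overlapped. Over the 9 libraries the Pearson correlation was highest between Ccl6 and Ccl9 (0.977) and lowest between Ccl5 and Ccl6 (-0.965), on 3 clusters of libraries that share their culture.

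The 5 genes span 138.9 kb, in the order Ccl5, Ccl9, Ccl6, Ccl3, Ccl4 from low to high coordinate, with gaps of 42.4, 9.245, 54.8 and 13.2 kb between them. In the interval and 100 kb to either side 18 other genes were annotated, 7 of which reached a mean of 1 FPKM in a culture. The 3 small secreted-protein genes Wfdc17, Wfdc18 and Wfdc21 of the whey acidic protein family beyond Ccl4 also had their highest level in FLM_G. Wfdc17 averaged 3855 ± 11.6 scaled FPKM in FLM_G, 113.7 ± 10.6 in FLM_M and 44.6 ± 0.81 in BMM (log2 change 6.40 in FLM_G against BMM, limma adjusted p = 1.52e-11, and 1.33 in FLM_M against BMM, limma adjusted p = 4.60e-07). Wfdc21 averaged 99.3 ± 9.26 in FLM_G and was listed at 0 in all FLM_M and BMM libraries. Wfdc18 had 3.13 ± 0.17 in FLM_G, 0.273 ± 0.025 in FLM_M and 0.0823 ± 0.073 in BMM. Thus Ccl6, Ccl3, Wfdc17, Wfdc18 and Wfdc21 had their highest level in FLM_G, with Ccl4, lowest in FLM_G, between them. E230016K23Rik, antisense to Ccl6, averaged 4.86 ± 0.33 in FLM_G, 0.0958 ± 0.0050 in FLM_M and 0.0397 ± 0.011 in BMM, and 1700020L24Rik had 1.66 ± 0.22 in FLM_G, was listed at 0 in FLM_M and averaged 0.0622 ± 0.108 in BMM. Wfdc18, Wfdc21, E230016K23Rik and 1700020L24Rik passed the filter of 1 FPKM through FLM_G alone. The flanking Taf15, an RNA-binding protein gene, was at 23.6 ± 1.32 in FLM_G, 29.5 ± 2.91 in FLM_M and 26.5 ± 1.33 in BMM, and was called lower in FLM_G than in FLM_M (-0.31, limma adjusted p = 0.00711). Taf15 was also called lower in FLM_G than in BMM under upper-quartile scaling (-0.22, limma adjusted p = 0.0249), without scaling (-0.57, limma adjusted p = 0.000125), in the 6 libraries alone (-0.17, limma adjusted p = 0.0455) and without FLM_M replicate 1 (limma adjusted p = 0.0336). It was called higher in FLM_M than in BMM without scaling (0.21, limma adjusted p = 0.0494) and without FLM_M replicate 1 (0.24, limma adjusted p = 0.0201). Heatr6 had 5.73 ± 0.17 in FLM_G, 5.02 ± 0.56 in FLM_M and 4.40 ± 0.41 in BMM, and its call in FLM_G against BMM (0.32, limma adjusted p = 0.00816) had the other sign without scaling (-0.034).

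**Figure D4:**
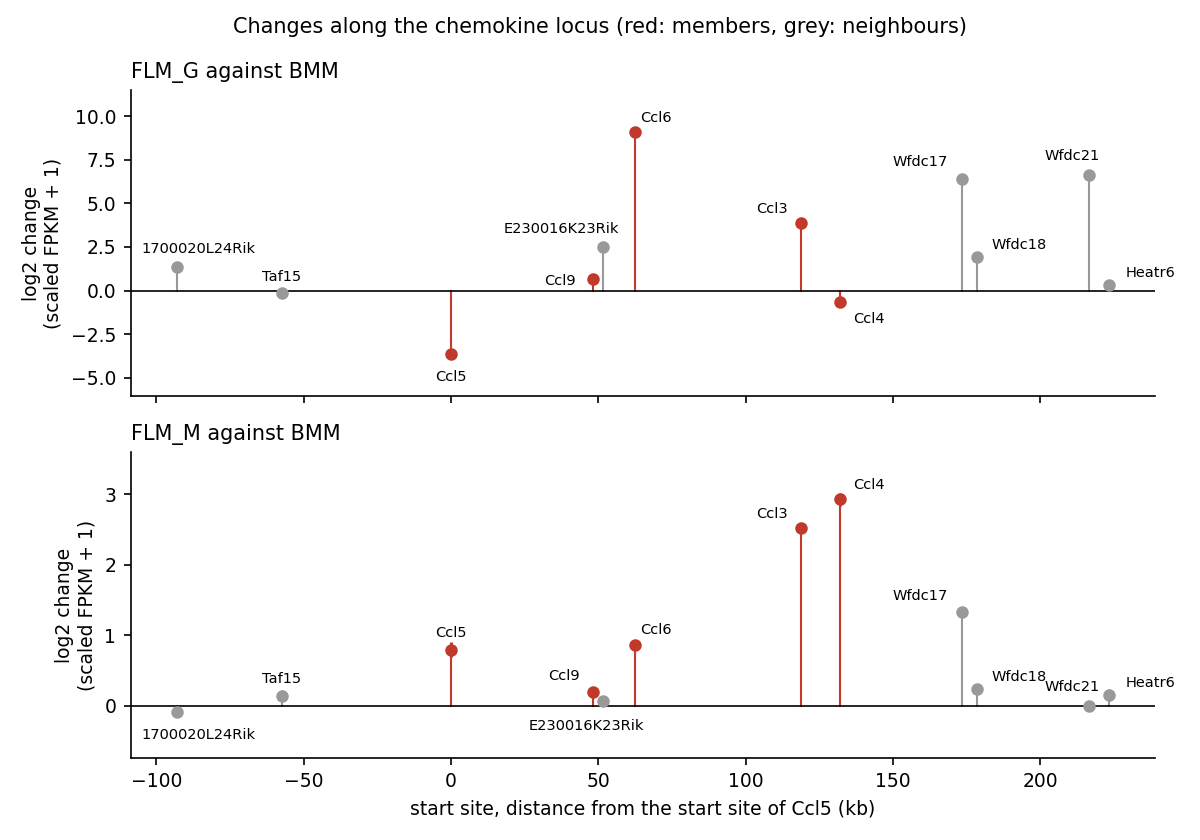
Log2 change (scaled FPKM + 1) of the 5 chemokine genes (red) and the 7 tested neighbours (grey) against the distance of their start sites from that of Ccl5 in kb, for FLM_G against BMM above and FLM_M against BMM below; points are limma estimates with SE, and the y axes differ. In FLM_G against BMM Ccl6 (9.08), Wfdc21 (6.65), Wfdc17 (6.40) and Ccl3 (3.86) rise while Ccl5 (-3.61) and Ccl4 (-0.68) fall, and in FLM_M against BMM the tallest points are Ccl4 (2.93) and Ccl3 (2.52).

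Of the receptor genes described, Ccr1 was highest in FLM_G and Ccrl2 in FLM_M. Ccr1, the receptor of Ccl3, Ccl5, Ccl6 and Ccl9, had 84.3, 69.2 and 71.1 scaled FPKM in FLM_G, 2.51, 2.67 and 3.27 in FLM_M and 5.79, 5.41 and 5.40 in BMM. It rose in FLM_G against BMM (log2 change 3.53, SE 0.096, limma adjusted p = 3.62e-09) and fell in FLM_M against BMM (-0.78, SE 0.096, limma adjusted p = 0.0002). Ccrl2, a related receptor that binds chemerin and presents it without signalling itself, averaged 2.31 ± 0.14 in FLM_G, 5.26 ± 0.30 in FLM_M and 0.686 ± 0.064 in BMM. Ccr3, a receptor of Ccl5 named here after its values were seen, was listed at 0 in FLM_G and averaged 1.08 ± 0.04 in FLM_M and 1.14 ± 0.17 in BMM. Of the 7 receptor genes described 3 were tested, and Ccr1l1, Ackr1, Ackr2 and Gpr75 were below 0.2 FPKM on average in each culture. Of these 3, 1 was higher and 1 lower in FLM_M against BMM, 2 were higher and 1 lower in FLM_G against BMM, and 1 was higher and 2 lower in FLM_G against FLM_M. The median log2 change was -0.043 in FLM_M against BMM, 0.97 in FLM_G against BMM and -0.92 in FLM_G against FLM_M.

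**Figure D5:**
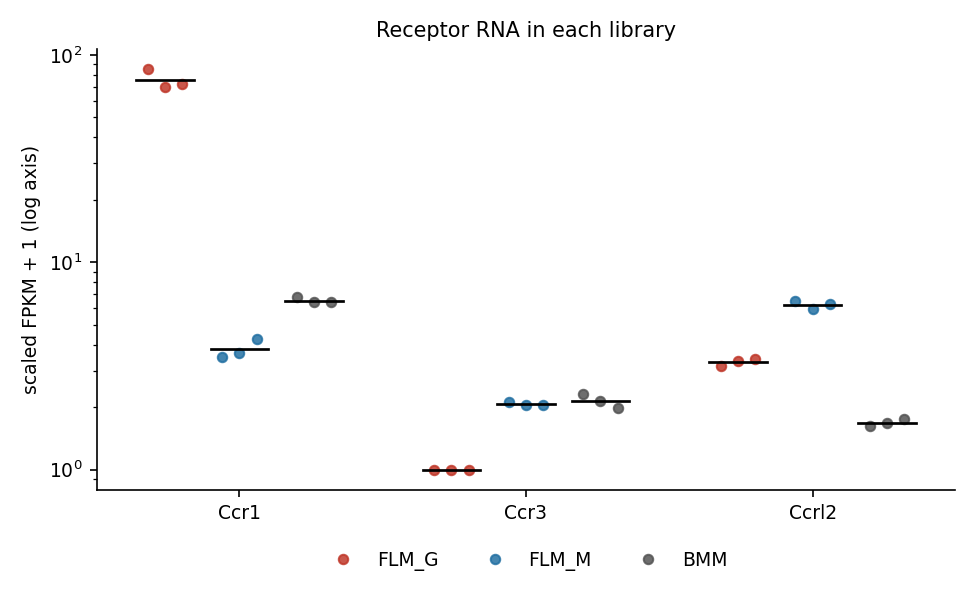
Scaled FPKM + 1 (log axis) of the receptor genes Ccr1, Ccr3 and Ccrl2 in each library, with FLM_G left, FLM_M in the middle and BMM right; points are libraries and black bars are means of 3. Ccr1 is high in FLM_G (69.2 to 84.3 FPKM) and Ccrl2 in FLM_M (4.94 to 5.54 FPKM), while Ccr3 is listed at 0 in FLM_G.

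Among 15 other CC chemokines, the monocyte attractants of the Ccl2 group were high in FLM_M and low in FLM_G, as Ccl4 and Ccl5 were. Ccl2 averaged 26.8 ± 2.32 scaled FPKM in FLM_G, 398.4 ± 22.8 in FLM_M and 249.2 ± 18.6 in BMM. Ccl7 averaged 0.824 ± 0.204 in FLM_G, 256.5 ± 23.6 in FLM_M and 151.2 ± 10.8 in BMM. Ccl12 averaged 0.355 ± 0.309 in FLM_G, 221.2 ± 15.4 in FLM_M and 13.7 ± 1.01 in BMM. All 3 were called in every comparison. Ccl17, a ligand of Ccr4 made by dendritic cells and macrophages, had 71.9 ± 2.07 in FLM_G and was listed at 0 in FLM_M and BMM. Of the 7 tested, 5 were higher and none lower in FLM_M against BMM, 2 higher and 3 lower in FLM_G against BMM, and 2 higher and 4 lower in FLM_G against FLM_M. Ccl17 and Ccl22, the 2 counted as higher in FLM_G, passed the filter of 1 FPKM through FLM_G alone, and Ccl8 passed it through FLM_M alone. Median log2 changes were 0.68 in FLM_M against BMM, -0.048 in FLM_G against BMM and -1.73 in FLM_G against FLM_M. Both FLM_G medians are the values of Ccl8, listed at 0 in FLM_G, with 2.33 FPKM in FLM_M and 0.035 in BMM. In FLM_G against BMM Ccl2 (-3.17), Ccl7 (-6.39) and Ccl12 (-3.46) fell, while Ccl17 (6.19) and Ccl22 (1.42) rose.

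Regulators known to act on these chemokine genes were described from a list of 19 NF-kB, IRF, AP-1 and macrophage factors. Cebpb, a factor of myeloid inflammatory genes, averaged 367.3 ± 45.9 scaled FPKM in FLM_G, 65.2 ± 3.55 in FLM_M and 58.0 ± 4.64 in BMM (log2 change 2.64 in FLM_G against BMM, limma adjusted p = 2.84e-08). Spi1, the macrophage ETS factor PU.1, averaged 170.4 ± 19.8 in FLM_G, 93.4 ± 7.59 in FLM_M and 86.8 ± 2.57 in BMM (0.96, limma adjusted p = 1.54e-05). Neither was called in FLM_M against BMM. Irf7, the interferon-inducible factor of antiviral genes including Ccl5, averaged 2.52 ± 0.56 in FLM_G, 57.1 ± 1.56 in FLM_M and 21.3 ± 0.81 in BMM, the same order as Ccl5, and was called in every comparison. Among AP-1 subunits, Fos had 95.7 ± 5.65 in FLM_G, 19.1 ± 0.42 in FLM_M and 39.0 ± 2.08 in BMM, Junb 142.9 ± 12.9 in FLM_G, 100.7 ± 2.36 in FLM_M and 61.7 ± 0.24 in BMM, and Jun 27.3 ± 0.17 in FLM_G, 67.0 ± 2.41 in FLM_M and 50.7 ± 1.84 in BMM. Fos and Junb were thus highest in FLM_G and Jun in FLM_M, and all 3 were called in all comparisons, although without scaling Junb was not called in FLM_G against FLM_M (0.014).

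Among the NF-kB genes, Relb had 5.39 ± 0.29 in FLM_G, 8.16 ± 0.11 in FLM_M and 2.67 ± 0.23 in BMM, and Nfkb2, its partner, 15.2 ± 0.22 in FLM_G, 19.7 ± 0.45 in FLM_M and 11.1 ± 0.50 in BMM, both called in every comparison, except that without scaling Nfkb2 was not called in FLM_G against BMM (0.028). Rela (24.4 ± 2.26 in FLM_G, 28.1 ± 2.63 in FLM_M, 27.9 ± 0.72 in BMM) and Rel (4.55 ± 0.22 in FLM_G, 4.67 ± 0.37 in FLM_M, 5.05 ± 0.08 in BMM), the subunits that activate Ccl3 and Ccl4 in stimulated macrophages, were called in no comparison on TMM-scaled FPKM of the 9 libraries. Under upper-quartile scaling Rela was called lower in FLM_G than in FLM_M (-0.24, limma adjusted p = 0.0268) and than in BMM (-0.25, limma adjusted p = 0.0232), and Rel lower in FLM_G than in BMM (-0.18, limma adjusted p = 0.0349). Without scaling both were called lower in FLM_G in both comparisons, with log2 changes of -0.66 to -0.43. Rela was also called in FLM_G against BMM in the 6 libraries alone (limma adjusted p = 0.0481) and when FLM_M replicate 1 or FLM_G replicate 3 was left out. In FLM_G against FLM_M Rela was called without FLM_M replicate 2 or FLM_G replicate 3. Nfkb1 had 6.39 ± 0.18 in FLM_G, 8.55 ± 0.59 in FLM_M and 8.58 ± 0.84 in BMM and was called lower in FLM_G than in either other culture. Nfkbia, the inhibitor IκBα, had 56.1 ± 2.58 in FLM_G, 54.3 ± 1.06 in FLM_M and 43.9 ± 1.55 in BMM, and its call in FLM_G against BMM (0.35) had the other sign without scaling (-0.067). Of the remaining factors, Irf8 had 10.6 ± 0.25 in FLM_G, 12.8 ± 0.73 in FLM_M and 15.3 ± 0.04 in BMM, and Irf5 18.4 ± 6.80 in FLM_G, 45.0 ± 19.7 in FLM_M and 52.2 ± 19.4 in BMM. Irf8 was called in every comparison, and Irf5, with its wide spread, only in the FLM_G comparisons, of which FLM_G against FLM_M was lost without FLM_G replicate 3 (limma adjusted p = 0.0528).

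Irf3 had 14.3 ± 0.46 in FLM_G, 11.4 ± 0.84 in FLM_M and 11.1 ± 0.65 in BMM, and Klf13, a factor of late Ccl5 transcription in T cells, 13.6 ± 0.70 in FLM_G, 7.26 ± 0.82 in FLM_M and 10.5 ± 0.64 in BMM. Both were called higher in FLM_G against BMM, with the other sign without scaling (-0.056 for each), which also turned Irf3 in FLM_G against FLM_M (0.30, and -0.15 without scaling). Atf3, a repressor of inflammatory genes, had 55.7 ± 6.40 in FLM_G, 63.4 ± 3.19 in FLM_M and 53.8 ± 1.18 in BMM and was called in FLM_M against BMM (0.23, limma adjusted p = 0.0457). That call was lost under upper-quartile scaling (0.0564), without the filter (0.0713) and with the replicate number as a block (0.0755). It was also lost when any BMM library (0.0979 to 0.13), FLM_M replicate 2 (0.114) or FLM_M replicate 3 (0.0871) was left out. In FLM_G against FLM_M Atf3 was called lower under upper-quartile scaling (-0.24, limma adjusted p = 0.0256) and without scaling (-0.67, limma adjusted p = 6.43e-05). In FLM_G against BMM it was called lower without scaling (-0.37, limma adjusted p = 0.00273) and higher without FLM_G replicate 2 (0.16, limma adjusted p = 0.0395). Irf1 had 6.76 ± 2.66 in FLM_G, 9.55 ± 3.73 in FLM_M and 5.55 ± 1.49 in BMM and was called, without scaling, in FLM_G against FLM_M (-0.87, limma adjusted p = 0.0335) and in no comparison on scaled FPKM. Of the list, 7 were higher and 3 lower in FLM_M against BMM, 10 higher and 5 lower in FLM_G against BMM, which became 5 higher and 8 lower without scaling, and 7 higher and 7 lower in FLM_G against FLM_M, which became 4 higher and 12 lower. Median log2 changes were 0.10 in FLM_M against BMM, 0.34 in FLM_G against BMM, with -0.067 without scaling, and -0.19 in FLM_G against FLM_M.

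Factors that act on the decay of inflammatory messages such as those of Ccl3 and Ccl4 differed strongly between cultures and not in 1 direction. Zfp36 (tristetraprolin), which binds AU-rich elements and promotes decay, averaged 203.8 ± 17.7 scaled FPKM in FLM_G, 51.7 ± 1.46 in FLM_M and 60.7 ± 3.31 in BMM (log2 change 1.73 in FLM_G against BMM, limma adjusted p = 5.04e-08). Zc3h12a (regnase-1), an RNase that cuts stem-loops of inflammatory messages, averaged 24.6 ± 0.59 in FLM_G, 4.31 ± 0.11 in FLM_M and 5.91 ± 0.25 in BMM (1.89, limma adjusted p = 2.88e-09). Zfp36l1, a relative of Zfp36, moved the other way, with 2.12 ± 0.16 in FLM_G, 18.2 ± 1.72 in FLM_M and 33.7 ± 0.81 in BMM (-3.48, limma adjusted p = 7.40e-10). Zfp36l2 had 160.0 ± 4.96 in FLM_G, 53.1 ± 6.49 in FLM_M and 93.2 ± 3.45 in BMM, Khsrp 30.5 ± 0.51 in FLM_G, 46.8 ± 1.5 in FLM_M and 45.8 ± 1.95 in BMM, and the stabilising Elavl1 (HuR) 11.2 ± 0.52 in FLM_G, 12.2 ± 0.18 in FLM_M and 13.1 ± 0.32 in BMM. Of the 6, none was higher and 4 were lower in FLM_M against BMM, where the call of Zfp36 (-0.23, limma adjusted p = 0.0277) was lost without scaling (0.0723), with the replicate number as a block (0.0587) or without BMM replicate 1 (0.0891) or any FLM_M library (0.051 to 0.0902). In FLM_G against BMM and in FLM_G against FLM_M 3 were higher and 3 lower, of which Elavl1 in FLM_G against FLM_M (-0.12, limma adjusted p = 0.0451) was lost with any BMM or FLM_M library left out (0.0522 to 0.0756), without FLM_G replicate 2 (0.154) or 3 (0.23) and with the replicate number as a block (0.0556). That call of Elavl1 was also lost with the filter at 5 FPKM (0.0502) and in the 6 libraries alone (0.0912). Median log2 changes were -0.30 in FLM_M against BMM, 0.28 in FLM_G against BMM, with -0.13 without scaling, and 0.73 in FLM_G against FLM_M.

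Trimming by proteases alters the activity of CC chemokines, and protease genes of a list drawn up for it changed in both directions. Whether each listed protease acts on these chemokines was not tested. Ctsk, a cysteine protease typical of osteoclasts, averaged 1078 ± 5.49 scaled FPKM in FLM_G, 1.34 ± 0.19 in FLM_M and 1.62 ± 0.26 in BMM (log2 change 8.69 in FLM_G against BMM, limma adjusted p = 1.19e-11). Mmp12, macrophage elastase, averaged 377.0 ± 31.9 in FLM_G, 31.8 ± 1.54 in FLM_M and 11.8 ± 0.52 in BMM (4.88, limma adjusted p = 7.71e-11). Mmp2, gelatinase A, averaged 10.8 ± 0.47 in FLM_G, 0.0126 ± 0.0122 in FLM_M and 0.037 ± 0.0077 in BMM (3.51, limma adjusted p = 5.29e-11). Mmp2 passed the filter of 1 FPKM through FLM_G alone. Ctsk, Mmp12, Mmp2, Ctsd and Ctss were highest in FLM_G. Ctsd had 7112 ± 363 in FLM_G, 1796 ± 92.1 in FLM_M and 2769 ± 158 in BMM, and Ctss 2214 ± 117 in FLM_G, 1285 ± 53.1 in FLM_M and 1355 ± 60.2 in BMM, while Ctsb, with 1097 ± 60.1 in FLM_G, 1482 ± 36.4 in FLM_M and 1828 ± 17.97 in BMM, and Ctsl, with 316.1 ± 6.84 in FLM_G, 429.7 ± 19.5 in FLM_M and 875.6 ± 29.5 in BMM, were highest in BMM. The membrane sheddases Adam10, at 45.9 ± 4.92 in FLM_G, 43.2 ± 2.27 in FLM_M and 80.5 ± 5.45 in BMM, and Adam17, at 18.8 ± 10.4 in FLM_G, 14.2 ± 0.86 in FLM_M and 30.1 ± 1.42 in BMM, differed in that Adam10 was called lower in both fetal liver cultures than in BMM and Adam17 was called in no comparison over all 9 libraries with TMM scaling. Its FLM_G libraries were far apart, and without FLM_G replicate 3 it was called lower in FLM_G than in BMM (-0.25, limma adjusted p = 0.0148), higher in FLM_G than in FLM_M (0.79, limma adjusted p = 2.74e-05) and lower in FLM_M than in BMM (-1.04, limma adjusted p = 6.22e-06). Adam17 in FLM_M against BMM was also called without FLM_G replicate 1 (limma adjusted p = 0.0472) and in the 6 libraries alone (-1.05, limma adjusted p = 2.32e-05). In FLM_G against BMM it was also called without scaling (-1.24, limma adjusted p = 0.0197) and without FLM_G replicate 1 (-1.14, limma adjusted p = 0.0383). Of 14 listed 11 were tested, Dpp4, Ctsg and Elane being below 1 FPKM. The counts were 2 higher and 5 lower in FLM_M against BMM, 5 higher and 4 lower in FLM_G against BMM, and 5 higher and 3 lower in FLM_G against FLM_M, with median log2 changes of -0.30 in FLM_M against BMM, -0.11 in FLM_G against BMM and 0.20 in FLM_G against FLM_M. Mmp9, counted as higher in FLM_M, passed the filter of 1 FPKM through FLM_M alone. Mmp14, counted as lower than in BMM, passed it through BMM alone. The median of -0.11 is the value of Mmp9, with 0.012 FPKM in FLM_G and 0.096 in BMM.

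Chemokines are held in granules and on cell surfaces by proteoglycans, and 9 of 12 listed genes were tested. Srgn, the granule proteoglycan serglycin, averaged 3.42 ± 1.80 scaled FPKM in FLM_G, 8.48 ± 0.74 in FLM_M and 31.0 ± 1.09 in BMM (log2 change -2.96 in FLM_G against BMM, limma adjusted p = 2.01e-05, and -1.76 in FLM_M against BMM, limma adjusted p = 0.00115). Sdc1 had 1.11 ± 0.01 in FLM_G, 0.962 ± 0.104 in FLM_M and 8.50 ± 0.24 in BMM, Sdc4 19.3 ± 0.65 in FLM_G, 29.0 ± 1.21 in FLM_M and 35.1 ± 0.71 in BMM, and Cspg4 1.16 ± 0.02 in FLM_G, 4.68 ± 0.42 in FLM_M and 14.3 ± 0.77 in BMM. All 4 of these core proteins were called lower in both fetal liver cultures than in BMM. Sdc3 was called higher than in BMM, with 129.0 ± 1.36 in FLM_G, 123.9 ± 16.6 in FLM_M and 95.3 ± 7.60 in BMM, a call lost in FLM_G without scaling (0.016) and in FLM_M without BMM replicate 3 (limma adjusted p = 0.0503). Of enzymes that sulfate the chains, Chst11 had 2.92 ± 0.24 in FLM_G, 10.6 ± 0.99 in FLM_M and 1.95 ± 0.09 in BMM, and Ndst1 6.39 ± 0.21 in FLM_G, 0.32 ± 0.10 in FLM_M and 4.26 ± 0.11 in BMM. The counts were 3 higher and 6 lower in FLM_M against BMM, 4 higher and 5 lower in FLM_G against BMM, or 1 higher and 5 lower without scaling, and 3 higher and 4 lower in FLM_G against FLM_M, or 2 higher and 6 lower without scaling. Median log2 changes were -1.39 in FLM_M against BMM, -0.84 in FLM_G against BMM and 0.066 in FLM_G against FLM_M, with -0.42 without scaling. Gpc1, counted as lower than in BMM, had 0.199 FPKM in FLM_G, 0.012 in FLM_M and 1.65 in BMM. Gpc1 passed the filter of 1 FPKM through BMM alone, and its value is the median of -1.39.

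Since FLM_G were grown in GM-CSF, 12 genes of its receptor and of STAT5 signalling were listed. Most of them were highest in FLM_G on scaled FPKM. The receptor chains Csf2ra, at 407.7 ± 41.3 scaled FPKM in FLM_G, 66.2 ± 4.59 in FLM_M and 129.4 ± 13.6 in BMM, Csf2rb, at 200.8 ± 12.5 in FLM_G, 26.6 ± 4.05 in FLM_M and 23.1 ± 0.35 in BMM, and Csf2rb2, at 80.6 ± 7.07 in FLM_G, 46.4 ± 3.66 in FLM_M and 26.4 ± 0.24 in BMM, rose in FLM_G against both others (log2 change against BMM 1.65 with limma adjusted p = 8.33e-07 for Csf2ra, 3.07 with 1.04e-08 for Csf2rb and 1.57 with 1.545e-07 for Csf2rb2). The STAT5 targets Pim1, at 111.4 ± 4.37 in FLM_G, 20.1 ± 0.65 in FLM_M and 12.4 ± 0.95 in BMM, and Socs3, at 16.0 ± 0.84 in FLM_G, 1.45 ± 0.03 in FLM_M and 1.08 ± 0.05 in BMM, did so too. Bcl6, which STAT5 represses, averaged 2.14 ± 0.10 in FLM_G, 11.9 ± 0.82 in FLM_M and 10.4 ± 0.44 in BMM (-1.86 in FLM_G against BMM, limma adjusted p = 1.52e-08). Its call in FLM_M against BMM (0.18, limma adjusted p = 0.0424) was lost under upper-quartile scaling (0.0647), with a pseudocount of 0.1 (0.053), in the 6 libraries alone (0.0616), with the replicate number as a block (0.0622) and with any BMM library left out (0.0646 to 0.141). That call was also lost without FLM_M replicate 1 (0.0965) or 3 (0.084) and without FLM_G replicate 2 (0.0598). Jak2, at 6.57 ± 0.28 in FLM_G, 5.99 ± 0.53 in FLM_M and 6.40 ± 0.52 in BMM, was called in no comparison on scaled FPKM. Without scaling Jak2 was called lower in FLM_G than in BMM (-0.33, limma adjusted p = 0.00501) and than in FLM_M (-0.30, limma adjusted p = 0.00782). Stat5b, at 9.24 ± 0.28 in FLM_G, 6.87 ± 0.65 in FLM_M and 8.63 ± 0.20 in BMM, was called higher in FLM_G than in FLM_M (0.38), with the other sign without scaling (-0.051). In FLM_G against BMM Stat5b was not called on scaled FPKM (0.088) and was called lower without scaling (-0.29, limma adjusted p = 0.004). Stat5a, at 3.64 ± 0.26 in FLM_G, 2.63 ± 0.08 in FLM_M and 5.00 ± 0.20 in BMM, was called lower in FLM_G than in BMM (-0.37, limma adjusted p = 0.00053). It was called higher in FLM_G than in FLM_M (0.36). The counts were 4 higher and 3 lower in FLM_M against BMM, where 44.6% of all tested genes were called. In FLM_G against BMM they were 8 higher and 2 lower (7 and 4 without scaling), beside 68.0% of all tested genes on scaled FPKM. In FLM_G against FLM_M they were 10 higher and 1 lower (7 and 2 without scaling), beside 70.6% on scaled FPKM. Cish and Socs2, counted as higher in FLM_G, passed the filter of 1 FPKM through FLM_G alone. Median log2 changes were 0.0090 in FLM_M against BMM, 1.59 in FLM_G against BMM and 1.197 in FLM_G against FLM_M.

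The genes whose pattern was most like each chemokine were taken from 3395 tested genes with a mean of at least 20 FPKM in a culture, by Pearson correlation of log2 values over the 9 libraries. With 3 clusters of libraries such values are high by construction, and 15 genes exceeded 0.99 for Ccl3, 13 for Ccl4, 86 for Ccl5, 135 for Ccl6 and 35 for Ccl9. Nearest to Ccl6 were the C-type lectin receptor Clec7a (dectin-1, r = 0.9998), at 894.6 ± 40.0 scaled FPKM in FLM_G, 11.4 ± 1.16 in FLM_M and 6.34 ± 0.48 in BMM, Btg2, an antiproliferative gene (0.9995), at 51.1 ± 1.72 in FLM_G, 2.73 ± 0.25 in FLM_M and 1.61 ± 0.08 in BMM, and Clec4n (dectin-2, 0.9995), at 522.7 ± 30.3 in FLM_G, 4.85 ± 0.46 in FLM_M and 3.00 ± 0.35 in BMM. Nearest to Ccl5 were the chemokine Ccl2 (0.9991), the membrane protein gene Ms4a7 (0.999), at 5.34 ± 0.36 in FLM_G, 66.3 ± 4.60 in FLM_M and 40.3 ± 1.72 in BMM, and the interferon-inducible Ifitm3 (0.9987), at 0.251 ± 0.238 in FLM_G, 1115 ± 109 in FLM_M and 300.1 ± 7.56 in BMM. Ccl4, highest in FLM_M, was nearest to Parp9 (0.9956), at 10.1 ± 0.78 in FLM_G, 26.9 ± 1.86 in FLM_M and 12.7 ± 0.14 in BMM, Phf11d (0.9947), at 1.52 ± 0.23 in FLM_G, 39.0 ± 3.19 in FLM_M and 4.39 ± 0.15 in BMM, and Gm4955 (0.9942), at 0.0219 ± 0.0201 in FLM_G, 35.9 ± 3.38 in FLM_M and 1.52 ± 0.12 in BMM. The graded pattern of Ccl3 was nearest to the cyclophilin gene Ppic (0.9982), at 40.8 ± 0.54 in FLM_G, 16.9 ± 0.70 in FLM_M and 1.47 ± 0.20 in BMM, the cytokine receptor chain Il2rg (0.9976), at 114.1 ± 4.35 in FLM_G, 82.3 ± 1.23 in FLM_M and 41.6 ± 1.07 in BMM, and the lysosomal protease Ctsz (0.9974), at 1394 ± 66.3 in FLM_G, 921.8 ± 55.5 in FLM_M and 469.1 ± 5.04 in BMM. In FLM_G against FLM_M the sign of Il2rg turned without scaling (0.46, and -0.018 without) and the call of Ctsz was lost. Ccl9 was nearest to Cd47 (0.9966), at 38.3 ± 1.63 in FLM_G, 19.2 ± 0.46 in FLM_M and 15.3 ± 1.58 in BMM, Acot9 (0.9957), at 53.0 ± 1.25 in FLM_G, 20.9 ± 0.55 in FLM_M and 15.9 ± 1.01 in BMM, and Arfgap3 (0.9955), at 21.8 ± 0.20 in FLM_G, 12.4 ± 0.60 in FLM_M and 9.46 ± 0.52 in BMM.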

How the data were processed

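RNA of 9 macrophage libraries, 3 per culture, was sequenced from 1 end for 101 cycles with a stranded poly(A) kit, per the labels' protocols. The submitters' processing notes name the tools HISAT2, StringTie, cutadapt, DESeq2, bcl2fastq and FastQC, without versions or roles, and as builds GRCm38 and mm10. The authors deposited FPKM per gene, without pooling libraries, and a table of raw read counts per gene as deposited by the authors without normalization. The counts summed to only 782400 to 1170813 per library and were at most 5.93% of the reads implied by the FPKM for the 5 chemokine genes, so they served as an alternative and FPKM as the main measure. In 242 of 569 pairs of genes annotated on opposite strands at overlapping positions, 1 of at least 20 FPKM on average and the other below 0.5, the other gene had the higher count. The count table may thus hold reads of the strand opposite to a gene, and its values for the chemokine genes need not measure the same transcripts.

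From the FPKM, TMM factors (edgeR 4.0.16, 0.801 to 1.142) scaled the libraries. Genes with at least 1 FPKM in at least 3 libraries were tested with limma 3.58.1 (trend, R 4.3.3) on log2(scaled FPKM + 1) with a mean per culture over all 9 libraries (6 residual degrees of freedom) and Benjamini-Hochberg adjustment. A log2 change on this scale understates changes of low genes. Coordinates are those of GENCODE M21 (GRCm38) by Ensembl identifier. Alternatives were other scalings (RLE, upper-quartile, none), other filters (none, 5 FPKM), a replicate block from the labels' numbers, a fit of the 6 libraries of a comparison alone, a pseudocount of 0.1, edgeR and DESeq2 1.42.0 on the counts, and each library left out.

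The members and lists were chosen with earlier results of these data known. Named besides the 5 genes were list members with a mean of at least 5 scaled FPKM in a culture, chromosome 11 genes within 100 kb with at least 1, and per chemokine the 3 most correlated genes of at least 20. Some list members outside this rule are named as well, such as those that passed the filter through a single culture. Some results that this rule covers are not reported here.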

Additional observations from a re-analysis of the deposited data

How the results depend on the processing

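The 15 changes of the 5 chemokine genes kept their direction in every alternative that gave a value (edgeR on the counts gave none for Ccl5), and all calls held under RLE and upper-quartile scaling, both other filters, the pseudocount of 0.1, the 6 libraries alone and each library left out. Calls that were lost, on the log2 scale, were Ccl9 in FLM_G against FLM_M without scaling (0.0054), with edgeR on the counts (0.080) and with DESeq2 on them (0.10). With edgeR on the counts Ccl4 in FLM_G against BMM (-0.62) and Ccl3 in FLM_G against FLM_M (0.58) were also lost. With DESeq2 on the counts so were Ccl5 (0.74) and Ccl9 (0.68) in FLM_M against BMM and Ccl4 (-0.76), Ccl5 (-3.82) and Ccl9 (0.78) in FLM_G against BMM. The count table holds few reads of these genes and may hold reads of the opposite strand, so its values need not measure the same transcripts, and the cause of the lost calls was not tested. It gave 1300 called genes with edgeR and 838 with DESeq2 in FLM_M against BMM (5329 with limma on FPKM), 2458 and 2195 in FLM_G against BMM (8125), and 2855 and 2628 in FLM_G against FLM_M (8441). With 1 library left out the called genes numbered 4192 to 5509 in FLM_M against BMM, 7239 to 8063 in FLM_G against BMM and 7606 to 8242 in FLM_G against FLM_M.

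Deviations of libraries with the same replicate number correlated at -0.077 to 0.090, and those with different numbers at -0.096 to 0.072. In FLM_G against BMM the values were 0.053 to 0.090 for the same number and -0.051 to -0.023 for different numbers. Such small correlations cannot decide whether the numbers pair the libraries. With the replicate number as a block 5140, 8018 and 8386 genes were called in the same order of comparisons and no call of the 5 genes changed. Permuted within pairs, a ratio cannot go below an exact p of 0.25.

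Of the 75 other named genes some changed sign. Without scaling these were Nfkb1 (0.056) in FLM_M against BMM, Atf3 (-0.37), Heatr6 (-0.034), Irf1 (-0.15), Irf3 (-0.056), Jak2 (-0.33), Klf13 (-0.056), Nfkbia (-0.067) and Stat5b (-0.29) in FLM_G against BMM, and Adam10 (-0.39), Adam17 (-0.26), Heatr6 (-0.24), Il2rg (-0.018), Irf3 (-0.15), Jak2 (-0.30), Nfkbia (-0.43), Sdc1 (-0.14), Sdc3 (-0.42) and Stat5b (-0.051) in FLM_G against FLM_M. Under upper-quartile scaling they were Rela (-0.011) in FLM_M against BMM, Atf3 (-0.022) and Jak2 (-0.023) in FLM_G against BMM and Nfkbia (-0.00036) in FLM_G against FLM_M. With the filter at 5 FPKM Nfkb1 (0.0074) and in the 6 libraries alone Rela (-0.00034) changed sign in FLM_M against BMM. With 1 library left out, values of these genes ran from -0.12 to 0 for 1700020L24Rik, -0.012 to 0.081 for Irf3, -0.55 to 0.041 for Irf5, -0.012 to 0.057 for Khsrp, -0.058 to 0.063 for Nfkb1 and -0.057 to 0.064 for Rela in FLM_M against BMM, from -0.00036 to 0.53 for Irf1 and -0.0051 to 0.084 for Jak2 in FLM_G against BMM, and from -0.096 to 0.79 for Adam17, -0.087 to 0.012 for Rel and -0.0029 to 0.16 for Sdc3 in FLM_G against FLM_M. On scaled FPKM none of these genes was called in that comparison except, in FLM_G against BMM, Heatr6, Irf3, Klf13 and Nfkbia, and, in FLM_G against FLM_M, Il2rg, Irf3 and Stat5b, all without scaling only.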

Other observations

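In the deposited count table Ccl6 had 2576, 2645 and 806 reads in the FLM_G libraries, 12, 18 and 15 in FLM_M and 3, 2 and 2 in BMM. Its scaled FPKM differed by less than 1% between the FLM_G libraries (SD over mean 0.454%), and its deposited FPKM there were 8244.8, 8124.5 and 8110.7. The lower count of FLM_G replicate 3 thus had no counterpart of like size in the FPKM. Ccl9 had 119, 158 and 36 reads in the same FLM_G libraries, 189, 159 and 168 in FLM_M and 41, 84 and 87 in BMM, again with the lowest FLM_G count in replicate 3. Ccl3 had 227, 198 and 152 reads in FLM_G, 245, 225 and 254 in FLM_M and 81, 85 and 91 in BMM. As a share of the reads implied by the FPKM the counts of Ccl3 were 0.940% to 1.57% in FLM_G, 2.40% to 2.65% in FLM_M and 5.31% to 5.93% in BMM, while over the 5 genes and 9 libraries the median share was 0.634%.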
